A study of Mus musculus with 6 samples.

Results

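The proteasome genes of mouse kidney were described in 3 transgenic and 3 control samples. Genes were taken by symbol, as all listed genes beginning with Psma, Psmb, Psmc, Psmd, Psme, Psmf or Psmg. Of the 7373 genes of the table, 47 matched, and 46 were kept after 1 gene at 0 in control 3 was dropped. The dropped gene was Psmd10, an assembly chaperone on chromosome X. Psmc3ip matched by its letters only: it encodes a partner protein of PSMC3 with a role in meiotic recombination. The remaining 45 genes comprised 14 genes of the core particle, 17 of the regulatory cap, 5 of the immunoproteasome and 9 other regulators and assembly chaperones. Psma8 and Psmb11, core genes of testis and thymus, were not analysed here.

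All mice were adult male FVB/N mice, an inbred strain, and the columns of all 6 samples are headed Pre IRI, in this field's usual reading before ischemia-reperfusion injury. The transgenic mice overexpressed a R120G mutant of CryAB, a chaperone of the small heat shock family, in cardiomyocytes, driven by the α-myosin heavy chain promoter. They were sampled ahead of heart failure, and the control mice were of the same age and sex. The transgene promoter is not one of kidney cells, so the comparison is one of kidneys in animals whose heart muscle carries the transgene. RNA came from snap-frozen kidney pieces, and messenger RNA abundance was measured by sequencing. The labels speak of triplicates and number no animals, so every p-value here reflects only how these libraries vary, which may be technical. Below, each kidney counted or numbered stands for a library, and n counts libraries. In bulk tissue, fewer cells of a type and less RNA per cell cannot be told apart.

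The proteasome is the main protease of the cytosol and nucleus and degrades proteins tagged with ubiquitin. Its core particle is a barrel of stacked rings: α subunits form the outer rings and gate the entrance, and β subunits form the inner rings. Psmb5, Psmb6 and Psmb7 encode the β subunits that cut peptide bonds. The regulatory cap binds ubiquitin chains, removes them, unfolds the substrate with a ring of ATPases and feeds it into the core. Interferon-γ induces Psmb8, Psmb9 and Psmb10, which replace the constitutive catalytic subunits in newly built cores, and Psme1 and Psme2, which form the PA28 activator. This immunoproteasome is known for producing peptides for MHC class I, mostly in immune cells.

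The upstream sequences of 4 genes are shown. Psmb9 and Psmg1 had the lowest edgeR p-values of the proteasome genes, though neither was under 0.05. Psmb8 and Psmb5 are an induced catalytic subunit and its constitutive counterpart. Each sequence is the run of 250 bases that ends at the RefSeq start site (GRCm38.p6), written 5′ to 3′ on the gene's strand. Capitals mark the letters matching 1 of 5 searched motifs. The windows are chr17:34187331-34187580 (minus strand) for Psmb9, chr17:34197945-34198194 (plus) for Psmb8, chr14:54617996-54618245 (minus) for Psmb5 and chr16:95990961-95991210 (minus) for Psmg1.
Psmb9: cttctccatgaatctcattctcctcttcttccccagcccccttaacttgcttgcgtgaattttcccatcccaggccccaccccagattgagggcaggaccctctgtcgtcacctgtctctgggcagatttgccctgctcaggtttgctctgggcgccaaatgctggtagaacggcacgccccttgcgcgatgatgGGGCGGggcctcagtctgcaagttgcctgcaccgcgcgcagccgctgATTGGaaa
Psmb8: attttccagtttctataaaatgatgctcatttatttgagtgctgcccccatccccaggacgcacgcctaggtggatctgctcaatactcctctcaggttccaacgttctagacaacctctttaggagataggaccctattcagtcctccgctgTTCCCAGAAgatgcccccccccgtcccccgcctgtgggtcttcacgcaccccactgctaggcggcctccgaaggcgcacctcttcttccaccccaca
Psmb5: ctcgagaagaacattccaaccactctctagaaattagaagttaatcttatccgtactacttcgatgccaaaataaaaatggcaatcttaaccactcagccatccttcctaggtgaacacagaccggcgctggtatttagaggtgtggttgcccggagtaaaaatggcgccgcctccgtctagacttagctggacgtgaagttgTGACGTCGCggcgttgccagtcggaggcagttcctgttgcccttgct
Psmg1: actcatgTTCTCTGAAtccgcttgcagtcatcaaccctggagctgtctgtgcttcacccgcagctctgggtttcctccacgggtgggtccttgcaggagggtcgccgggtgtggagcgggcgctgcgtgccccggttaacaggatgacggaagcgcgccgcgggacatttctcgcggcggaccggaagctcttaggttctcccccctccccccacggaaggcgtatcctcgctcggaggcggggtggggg

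The motifs were read on both strands, with overlaps allowed, in the windows of 38 proteasome genes and of all 5972 listed genes with a RefSeq window. A match is a string of letters and not a shown binding site. TGACNNNGC, the antioxidant response element that NFE2-related factors bind, occurred in 5 of the 38 (13.16%) and in 12.19% of all windows. In the Psmb5 sequence it is the TGACGTCGC shown in capitals, and the other 4 matches were at Psmb6, Psmc6, Psmd12 and Psmd9. The interferon-stimulated response element, read as GAAA, any 2 bases and GAAA, was in 3 of the 38 windows (7.895%), those of Psmb3, Psmd4 and Psmd9, and in 2.261% of all. TTCNNNGAA, the γ-activated site of STAT factors, was in the windows of Psmb8 and Psmg1, 2 of 38 (5.263%) against 5.626% of all. The CCAAT box (CCAAT) was in 12 of 38 (31.58%) against 36.6%. The GC box (GGGCGG) was in 21 of 38 (55.26%) against 60.92%. Psmb9 carried a GC box and a CCAAT box, the latter as ATTGG on the strand shown.

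The proteasome genes lay on 15 chromosomes, with 8 genes on chromosome 11, 6 on chromosome 2 and 5 on chromosome 14. Psmb9 and Psmb8 flank Tap1, a peptide transporter subunit, within the MHC region of chromosome 17. Psmb9 and Tap1 start 225 bases apart on opposite strands, so all 225 bases between them are upstream sequence of both. Tap1 ends 969 bases before Psmb8 begins, and Tap1 itself was not analysed here. Psme1 and Psme2 lie 5912 bases apart on chromosome 14. Another protein-coding gene overlaps 5 of the proteasome genes: AY074887 at Psma4, Emc9 at Psme1, Erlec1 at Psme4, Tmem74b at Psmf1 and Htr2b at Psmd1. These overlaps are of whole gene spans, introns included, and exons were not compared. Whether counting used strand is not given in the sources used here. Reads of any exon sequence that such pairs share therefore cannot be told apart, nor can those shared with processed pseudogene copies such as Psme2b.

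Values are CPM, library-scaled estimated counts (counts per 1 M, with TMM library sizes), unless said otherwise. Library totals over the listed genes ran from 23.5 to 47.6 M estimated counts, and the proteasome gene with the fewest, Psmb9, had 141 to 342 estimated counts per library. Markers of nephron segments were abundant: in control 1, Lrp2 of the proximal tubule stood at 1345 CPM, Umod of the thick ascending limb at 2024 CPM and Aqp2 of the collecting duct at 692 CPM. Control 3 stood apart. In a principal component analysis of the 7194 genes tested, the first component held 51.3% of the variance. Control 3 lay on it at 24.8, with the other 5 libraries between -13.1 and 0.58. That analysis left out all 177 listed X and Y genes, which were at 0 in control 3. Psmd10 was thus at 26.5 and 23.7 CPM in controls 1 and 2, 0 in control 3 and 24.3, 25.5 and 25.4 in transgenic kidneys, in the fit of every row. Several values below are also given without control 3.

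The summed proteasome messenger RNA of the groups differed by less than the spread of the controls. The 45 genes summed to 5667, 5171 and 6224 CPM in controls 1, 2 and 3 and to 5709, 5759 and 5631 CPM in transgenic kidneys 1, 2 and 3. The transgenic kidneys thus lay inside the range of the controls, with control 2 lowest and control 3 highest, and the means were 5687 ± 527 and 5700 ± 64.4 CPM (SD, n = 3 each). By log2 fold change (transgenic over control), 22 of 45 were higher and 23 lower in transgenic kidneys, with a median of -0.0015, beside a median of 0.0010 over all 7194 genes tested, of which 50.3% were higher. This even split depended on the controls kept: without control 3, 38 were higher and 7 lower (median 0.07), and without control 2, 14 were higher and 31 lower (median -0.05). None of the 45 passed the edgeR quasi-likelihood test at a Benjamini-Hochberg adjusted p of 0.05, where 0.0139% of all genes did, a single gene (Ren1, renin). None had an unadjusted p under 0.05 in edgeR, where 1.82% of all genes did. DESeq2 gave 0 with either p, and limma on the authors' log2 values gave 0 adjusted and 1 unadjusted, Psmb9. Over all 7194 genes limma gave 0 adjusted and 134 unadjusted. In 36 of the 45 genes (80.0%) the log2 difference was within 0.1 of 0, and so was that of 62.3% of all genes. A p above the threshold does not show that levels were equal. The standard errors of the log2 differences ran from 0.07 to 0.20.

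**Figure D1:**
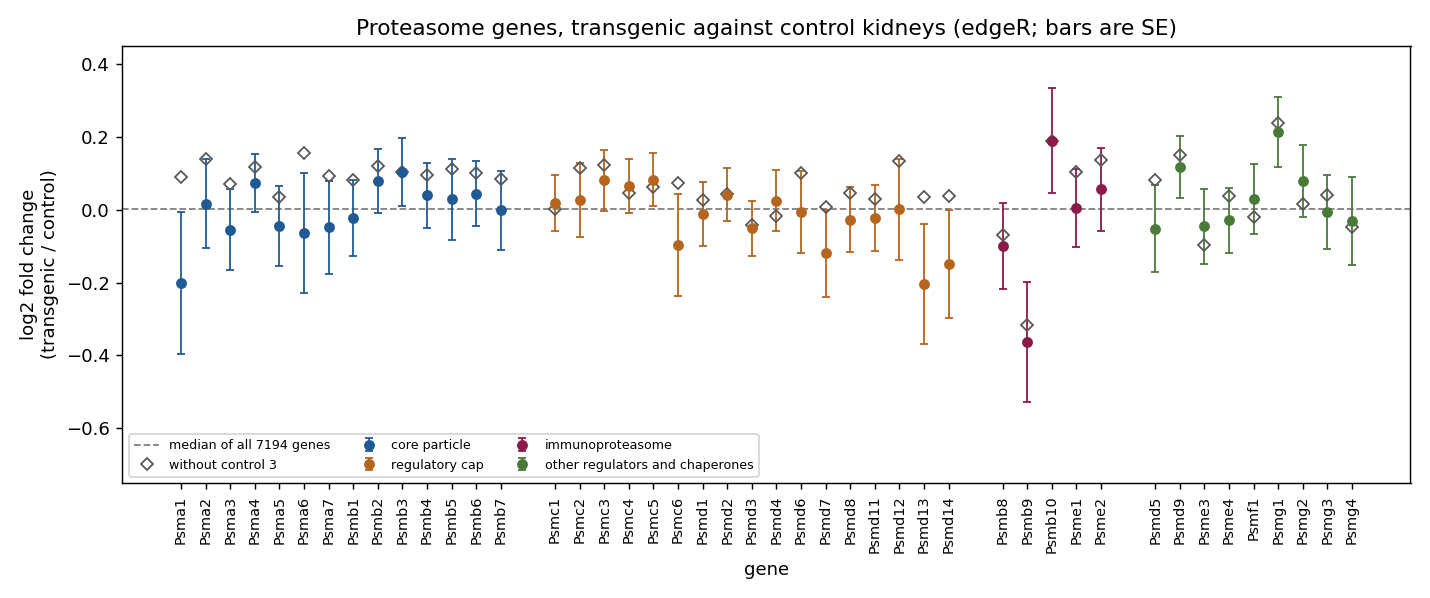
The plot of log2 fold changes gives transgenic over control for each of the 45 proteasome genes (filled points, with bars of 1 standard error from edgeR) and the same without control 3 (open diamonds), beside the median of all genes (dashed line). Most points lie within 0.1 of 0; Psmb9 at -0.36 is the lowest and Psmg1 at 0.21 the highest, and the open diamonds of the core genes sit at or above their filled points.

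Abundance differed far more between genes than between groups. Per kilobase of the principal transcript, mean levels over the 6 kidneys spanned 68.2-fold, from 4.56 CPM per kb for Psmb9 to 311 for Psmb6. Core genes ran from 48.7 (Psma3) to 311 with a median of 161 CPM per kb. Highest were 3 β genes: Psmb6 at 283 to 330 CPM per kb, Psmb4, a structural subunit, at 273 to 324 and Psmb5 at 246 to 328, so these ranges overlapped and give no order among them. Cap genes had a median of 68.7 CPM per kb, from 15.3 for Psmd11, a scaffold subunit, to 150 for Psmd4, a ubiquitin receptor. The 3 induced catalytic subunits were at 4.56 (Psmb9), 8.56 (Psmb8) and 15.6 (Psmb10) CPM per kb. Psme2, at 90.1 CPM per kb, was the most abundant immunoproteasome gene, which shows that the genes of this set are not all rare in kidney. Other regulators and chaperones ranged from 8.98 (Psmd5) to 42.2 (Psmg1) CPM per kb. The transcript length is an assumption for each gene, since the isoforms used in these kidneys were not measured.

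**Figure D2:**
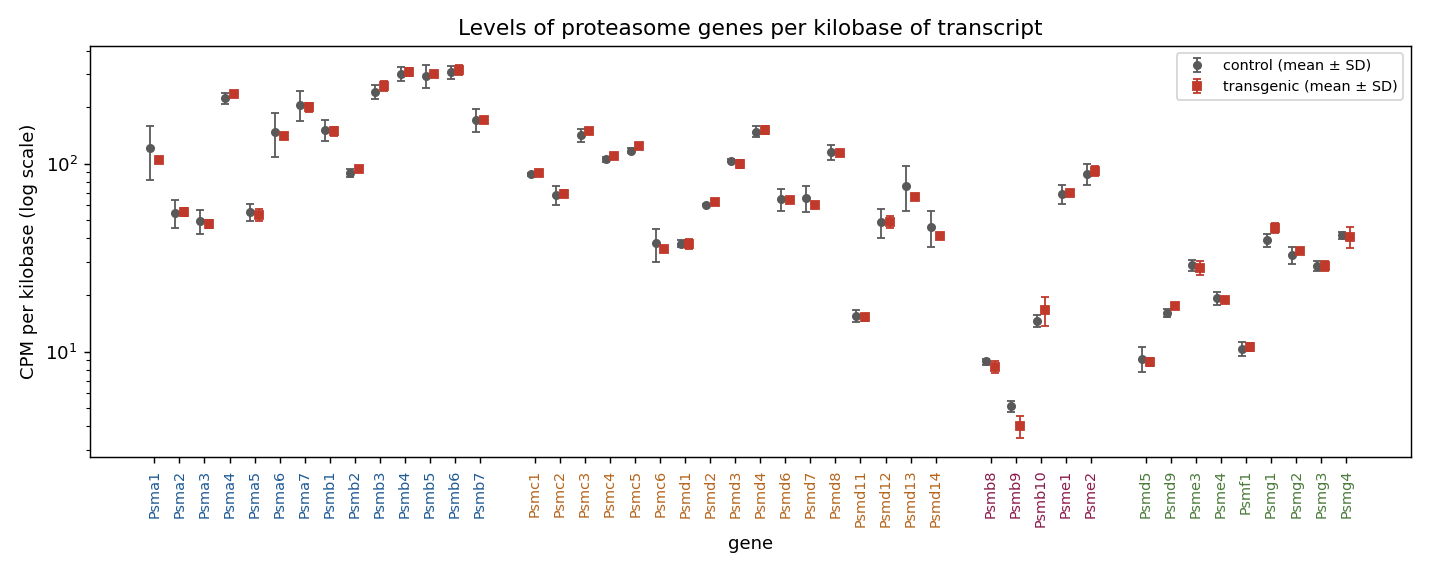
The plot of levels shows CPM per kilobase of transcript on a log scale for each proteasome gene, grouped by role, as the mean of 3 control (circles) and 3 transgenic kidneys (squares) with bars of 1 SD. The highest genes are of the core, whose range overlaps that of the cap, and Psmb8, Psmb9 and Psmb10 are among the lowest. The means of the groups lie close together for each gene beside the 68.2-fold range between genes.

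The core particle showed no shift between the groups that exceeded the spread of the controls. Its 14 genes summed to 2705, 2367 and 3049 CPM in controls (mean 2707 ± 341, SD, n = 3) and 2754, 2749 and 2660 in transgenic kidneys (2721 ± 52.7, n = 3). Controls 2 and 3 bracketed the 3 transgenic sums, which lay close together. In transgenic kidneys 7 genes were higher and 7 lower, with a median log2 difference of 0.0077 and a range of -0.20 to 0.10. The α genes were 2 higher and 5 lower (median -0.05), and the β genes 5 higher and 2 lower (median 0.04).

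Among the constitutive catalytic subunits, Psmb5 (chymotrypsin-like activity, gene 19173, chr14:54614120-54617995) was at 278, 221 and 294 CPM in controls and 279, 270 and 261 CPM in transgenic kidneys. The groups overlapped and the log2 difference was 0.03 ± 0.11 (SE). Psmb6 (caspase-like activity, gene 19175, chr11:70525324-70527858) stood at 245, 226 and 263 CPM in controls and 262, 260 and 234 CPM in transgenic kidneys, a difference of 0.04 ± 0.09. Here too the groups overlapped, with control 2 lowest and control 3 highest. Psmb7 (trypsin-like activity, gene 19177, chr2:38588046-38643952) was at 206, 168 and 222 CPM in controls and 190, 200 and 206 CPM in transgenic kidneys. Its log2 difference was -0.0015 ± 0.11, and every transgenic value lay within the control range. Without control 3 the differences were 0.11, 0.10 and 0.09 for Psmb5, Psmb6 and Psmb7.

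The smallest p-values in the core belonged to Psmb3, Psma1 and Psma4. Psmb3, a structural β subunit (gene 26446, chr11:97703434-97713500), was at 201, 169 and 186 CPM in controls and 195, 213 and 189 CPM in transgenic kidneys, a log2 difference of 0.10 ± 0.09. The groups overlapped through control 1, and the difference was 0.17 without control 1, 0.04 without control 2 and 0.05 without transgenic kidney 2. Psma1, an α subunit (gene 26440, chr7:114264550-114276116), was at 128, 109 and 198 CPM in controls and 124, 125 and 128 CPM in transgenic kidneys. Control 3 alone was high, the transgenic kidneys were close to control 1, and the log2 difference of -0.20 ± 0.20 became 0.09 without control 3. Psma4, an α subunit (gene 26441, chr9:54950781-54958034), was at 263, 242 and 275 CPM in controls and 273, 268 and 280 CPM in transgenic kidneys, a log2 difference of 0.07 ± 0.08 with overlap, which was 0.12 without control 3 and 0.02 without control 2. Its adjusted p, like those of Psmb3 and Psma1, was 0.997 (edgeR and Benjamini-Hochberg). The other 8 core genes had log2 differences from -0.06 (Psma6) to 0.08 (Psmb2).

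Core genes moved together between libraries, and the 2 controls that differed most were opposite extremes. Control 3 was the highest of the 6 libraries for 11 of 14 core genes, against 34.8% of all genes, and control 2 was the lowest for 13 of 14, against 20.5% of all genes. The exceptions at the top were Psma4, Psmb2 and Psmb3, and the exception at the bottom was Psma3. The sign of the core comparison therefore turned on the controls kept. Without control 3, all 14 core genes were higher in transgenic kidneys (median log2 difference 0.10, range 0.04 to 0.15), where 50.1% of all genes were higher. With control 2 left out instead, 11 of 14 were lower (median -0.10), where 49.9% of all genes were higher. No proteasome gene passed the edgeR test with adjustment in either case; without control 3, 0.0278% of all genes did.

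**Figure D3:**
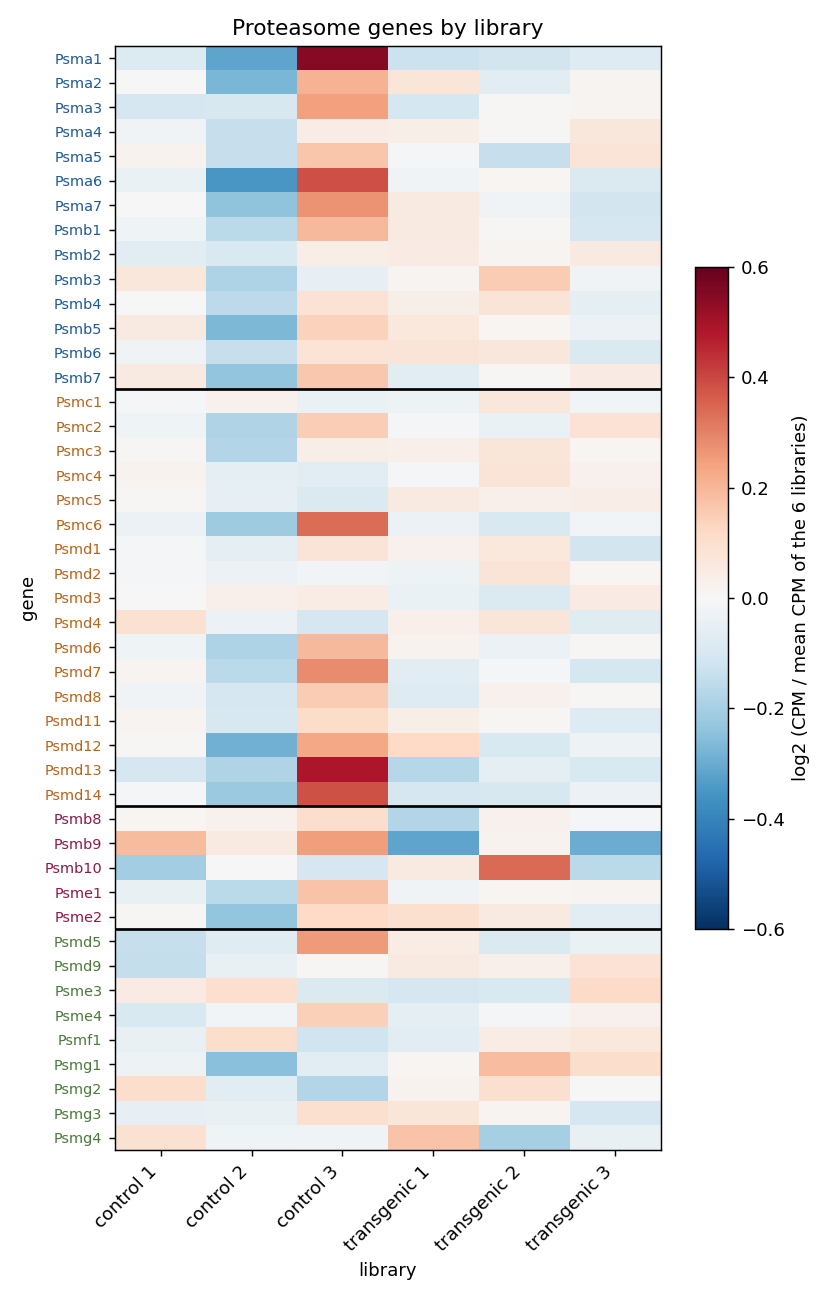
The plot by library is a heatmap of the log2 ratio of each gene's CPM to its mean over the 6 kidneys, with genes in rows, kidneys in columns and lines between the core, the cap, the immunoproteasome and the other regulators and chaperones. Core genes are below their mean (blue) throughout control 2 and above it (red) in control 3 except Psmb3, the transgenic columns are paler, and the other regulators and chaperones follow no such column pattern.

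The regulatory cap repeated the even split of the core, with a smaller spread. Its 17 genes summed to 2323, 2176 and 2495 CPM in controls (2331 ± 159, SD, n = 3) and 2303, 2347 and 2311 CPM in transgenic kidneys (2320 ± 23.2, n = 3). All 3 transgenic sums lay between control 2 and control 3. In transgenic kidneys 8 genes were higher and 9 lower, with a median log2 difference of -0.0059 and a range of -0.20 to 0.08. Of the 6 ATPases, 5 were higher (median 0.05) and Psmc6 was lower, and of the 11 non-ATPase subunits 3 were higher and 8 lower (median -0.02). Without control 3, 15 of 17 cap genes were higher (median 0.04), and without control 2, 6 of 17 were higher (median -0.05). Control 3 was the highest library for 10 of 17 and control 2 the lowest for 11 of 17.

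Psmd13, Psmc5 and Psmd14 had the smallest p-values in the cap. Psmd13, a structural lid subunit (gene 23997, chr7:140882394-140898642), was at 132, 125 and 198 CPM in controls and 126, 137 and 133 CPM in transgenic kidneys. As for Psma1, 1 high value in control 3 set the difference of -0.20 ± 0.17, which was 0.04 without it. Psmd14, the deubiquitinase of the lid (gene 59029, chr2:61711694-61800376), had 66.7, 57.6 and 87.6 CPM in controls and 62.7, 62.9 and 65.6 CPM in transgenic kidneys. Its difference was -0.15 ± 0.15, and 0.04 without control 3. Psmc5, an ATPase (gene 19184, chr11:106256185-106263112), was at 160, 154 and 150 CPM in controls and 165, 163 and 163 CPM in transgenic kidneys. All 3 transgenic values lay above all 3 controls by a small margin, a difference of 0.08 ± 0.07 (adjusted p = 0.997, edgeR and Benjamini-Hochberg). The other 14 cap genes ran from -0.12 (Psmd7) to 0.08 (Psmc3).

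The excess of control 3 differed between subunits. Taken as log2 ratio to the mean CPM of the other 5 libraries, it was 0.69 for Psma1, 0.60 for Psmd13 and 0.48 for Psma6. For Psmd14 it was 0.47, for Psmc6 0.41 and for Psmd7 0.35. These are α subunits of the core, subunits of the lid and 1 ATPase of the base, so no single subcomplex held them all. Other genes of the cap went the opposite way, with control 3 the lowest of the 6 libraries. These were the ATPases Psmc1 at 137 CPM, Psmc4 at 148 CPM and Psmc5 at 150 CPM, and the non-ATPase Psmd4 at 186 CPM. The part of the missing X and Y signal of that library in these values was not tested.

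The immunoproteasome genes held the most negative log2 difference of the set, that of Psmb9, and no shared direction. The 5 genes summed to 201, 184 and 222 CPM in controls (202 ± 19.4, SD, n = 3) and 207, 214 and 198 CPM in transgenic kidneys (206 ± 8.16, n = 3). In transgenic kidneys Psmb10, Psme1 and Psme2 were higher and Psmb8 and Psmb9 lower, with a median log2 difference of 0.0056, which was 0.10 without control 3 and -0.07 without control 2. None passed the edgeR test with adjustment or had an unadjusted p under 0.05.

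Psmb9 (gene 16912, chr17:34182030-34187330), which replaces Psmb6 in the immunoproteasome and whose upstream sequence is printed above, was at 7.03, 6.41 and 7.35 CPM in controls and 4.95, 6.26 and 5.01 CPM in transgenic kidneys. All 3 transgenic values lay below all 3 controls, though transgenic kidney 2 came close to control 2. Means were 6.93 ± 0.477 and 5.41 ± 0.735 CPM (SD, n = 3 each), a log2 difference of -0.36 ± 0.16 or 0.778-fold. The edgeR quasi-likelihood test gave a Benjamini-Hochberg adjusted p of 0.997. With any 1 library left out the difference stayed between -0.48 and -0.30, and without control 3 it was -0.32. Without transgenic kidney 2, its transgenic value closest to the controls, its unadjusted p was under 0.05 in edgeR, as were those of 115 of all 7194 genes. It did not pass after adjustment. With any other library left out, its unadjusted edgeR p ran from 0.061 to 0.17. Psmb9 was the 1 proteasome gene whose transgenic values were all below its control values, as were those of 3.02% of all genes. The authors' table lists genes with an NRPKM, its expression measure, of at least 5.0 in at least 2 of 6 samples. Psmb9 was near that bound, at 5.20, 4.74 and 5.44 CPM per kb in controls and 3.66, 4.63 and 3.71 in transgenic kidneys. It may have entered through controls alone, which would favour lower transgenic values. This was not tested, so the separation cannot count as support for a difference.

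Psmb8 (gene 16913, chr17:34198195-34201454), the counterpart of Psmb5, was at 14.0, 14.2 and 15.0 CPM in controls and 12.4, 14.2 and 13.9 CPM in transgenic kidneys. Its groups overlapped, with a log2 difference of -0.10 ± 0.12, which was -0.04 without transgenic kidney 1. Psmb10 (gene 19171, chr8:105935728-105938392), the counterpart of Psmb7, was at 17.7, 20.5 and 19.1 CPM in controls and 21.3, 26.0 and 18.3 CPM in transgenic kidneys. Transgenic kidney 2 alone was well above the controls, transgenic kidney 3 lay inside their range, and the difference was 0.19 ± 0.14, which was 0.05 without transgenic kidney 2 and 0.30 without transgenic kidney 3. The estimates for the neighbours Psmb9 and Psmb8 were unequal in size, and that for Psmb10, on another chromosome, lay in the opposite direction. These genes were not tested against each other.

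Psme1 (PA28 α, gene 19186, chr14:55578494-55581527) was at 74.8, 69.0 and 86.9 CPM in controls and 75.9, 77.7 and 78.0 CPM in transgenic kidneys, a log2 difference of 0.0056 ± 0.11. Psme2 (PA28 β, gene 19188, chr14:55587440-55591101) was at 87.2, 73.5 and 94.1 CPM in controls and 92.6, 89.9 and 82.6 CPM in transgenic kidneys, a difference of 0.06 ± 0.11. Without control 3 these differences were 0.10 and 0.14. Both PA28 genes followed the core pattern, with control 2 lowest and control 3 highest, and all transgenic values inside the control range.

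The balance between induced and constitutive catalytic subunits was compared within each kidney. Per kilobase, Psmb9 was at 1.67% ± 0.0235 of Psmb6 in controls and 1.27% ± 0.152 in transgenic kidneys (SD, n = 3 each). The log2 ratios were -5.12, -5.14 and -5.16 in controls and -5.73, -5.38 and -5.55 in transgenic kidneys, so the groups did not overlap. Since Psmb9 was near the bound for entry into the authors' table, this separation has the limit given above for Psmb9. The 3 control ratios lay close together, though Psmb9 had only 191, 225 and 342 estimated counts in controls 1, 2 and 3. At such counts, 3 close values do not show that the ratio is tightly held. The difference was -0.41 (SE 0.101), and the exact two-sided permutation test gave p = 0.1, the smallest that 3 against 3 samples allow, and 0.3 after Benjamini-Hochberg adjustment over the 3 pairs. Psmb8 was at 3.05% ± 0.425 of Psmb5 in controls and 2.76% ± 0.274 in transgenic kidneys (log2 difference -0.14, SE 0.141, exact permutation p = 0.6, adjusted 0.6). With 1 library left out that difference ran from -0.20 (without control 1) to -0.03 (without control 2), and without transgenic kidney 1 it was -0.05. Psmb10 was at 8.68% ± 1.83 of Psmb7 in controls and 9.76% ± 1.83 in transgenic kidneys (0.17, SE 0.231, exact permutation p = 0.5, adjusted 0.6). It ran from 0.05 (without transgenic kidney 2) to 0.34 (without control 2), and was 0.09 without control 1, 0.09 without control 3 and 0.32 without transgenic kidney 3. All 3 induced subunits were thus minor partners by messenger RNA in these whole kidneys, in both groups.

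**Figure D4:**
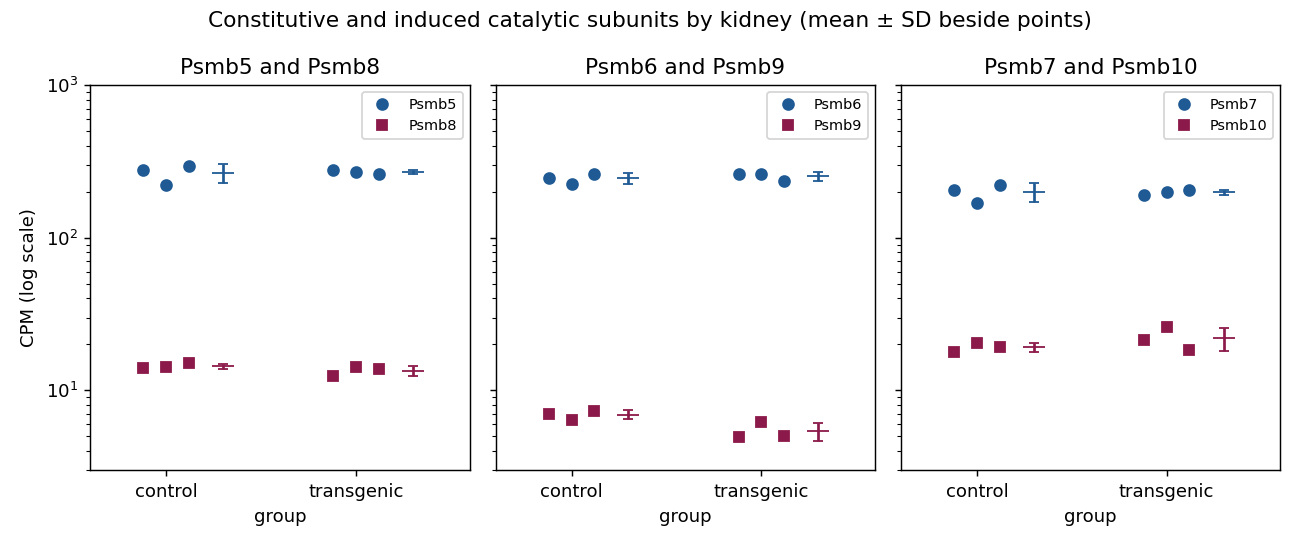
The plot of catalytic pairs shows the CPM of each constitutive subunit (circles) and its induced counterpart (squares) in each kidney on a log scale, with the mean ± SD beside the 3 points of a group. The constitutive genes lie near 200 to 300 CPM in both groups; Psmb9 is the 1 induced gene whose 3 transgenic points are all under the 3 control points.

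Immune cells are a main source of immunoproteasome transcripts, so their markers stand beside these values. Of 18 marker genes 11 were measured, and 10 of them were lower and 1 (Coro1a) higher in transgenic kidneys, with a median log2 difference of -0.16 beside 0.0010 over all genes. Without control 3, 8 were lower and 3 higher, with a median of -0.06. Their summed level was 301 to 357 CPM in controls and 272 to 336 CPM in transgenic kidneys, and the ranges overlapped. The 3 with the smallest p-values were the complement genes of macrophages, C1qa (-0.25, and -0.06 without control 3), C1qb (-0.22, and -0.20) and C1qc (-0.22, and -0.16), and none of the 11 passed the edgeR test or had an unadjusted p under 0.05. Ptprc, H2-Eb1, Cd68, Fcer1g, Laptm5, Cd3e and Cd79a were not analysed here. The part of immune cells in the Psmb9 value was not tested. Of 11 antigen processing genes 6 were measured, 3 higher and 3 lower, with a median of 0.01 and a range of -0.05 to 0.07. Those with the smallest p-values were H2-K1, an MHC class I heavy chain (0.07), Tap2, the partner of Tap1 (0.07), and Tapbp, tapasin (-0.05). None passed the edgeR test or had an unadjusted p under 0.05.

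The 9 other regulators and assembly chaperones held the most positive log2 difference of the set, that of Psmg1. In transgenic kidneys 4 were higher and 5 lower, with a median log2 difference of -0.0069 and a range of -0.05 to 0.21, and the median was 0.04 without control 3. Their sums were 438, 444 and 458 CPM in controls and 445, 450.0 and 463 CPM in transgenic kidneys. This group did not follow the core from library to library: control 3 was highest for 3 of 9 and control 2 lowest for 1 of 9.

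Psmg1, a chaperone that pairs with PSMG2 to assemble the α ring (gene 56088, chr16:95979933-95990960), was at 43.2, 37.1 and 42.2 CPM in controls and 44.4, 50.2 and 47.5 CPM in transgenic kidneys. All transgenic values lay above all controls, with transgenic kidney 1 close to control 1. The log2 difference was 0.21 ± 0.10 (adjusted p = 0.997, edgeR and Benjamini-Hochberg). It was 0.24 without control 3, and then Psmg1 was the 1 proteasome gene with an unadjusted p under 0.05, where 2.31% of all genes had one. Psmg2 (gene 107047, chr18:67641587-67654181), its partner, was at 38.2, 34.0 and 31.4 CPM in controls and 36.1, 37.9 and 35.4 CPM in transgenic kidneys. Its groups overlapped, with a log2 difference of 0.08 ± 0.10, which was 0.02 without control 3 and 0.16 without control 1.

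Psmd9, a chaperone of the ATPase base (gene 67151, chr5:123228190-123250126), was at 39.4, 42.2 and 43.8 CPM in controls and 45.2, 44.5 and 46.3 CPM in transgenic kidneys. The groups did not overlap, the log2 difference was 0.12 ± 0.08 (adjusted p = 0.997, edgeR and Benjamini-Hochberg), and it was 0.15 without control 3 and 0.08 without control 1. Psmc5, Psmg1 and Psmd9 were the 3 proteasome genes whose transgenic values were all above their control values, as were those of 2.96% of all genes. With Psmb9 that makes 4 of 45 (8.89%) without overlap in either direction, against 5.98% of all genes. Without control 3, 7 of the 45 were higher without overlap, where 7.6% of all genes were. Then 1 of the 45 was lower without overlap, where 7.46% of all genes were. Psme3 (PA28 γ, a nuclear activator), Psme4 (PA200, another activator) and Psmf1 (an inhibitor of the core) had differences of -0.05, -0.03 and 0.03. Psmg3 and Psmg4, the second pair of chaperones of the α ring, had -0.0069 and -0.03, and Psmd5, a base chaperone, had -0.05.

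Of 27 genes that work with the proteasome 25 were measured, 11 higher and 14 lower in transgenic kidneys, with a median log2 difference of -0.04. Without control 3, 15 were higher and 10 lower (median 0.02). None passed the edgeR test or had an unadjusted p under 0.05. Ubb, a polyubiquitin gene, was at 605, 492 and 593 CPM in controls and 668, 624 and 656 CPM in transgenic kidneys. Its groups did not overlap, and the difference was 0.20 ± 0.10 (adjusted p = 0.997, edgeR and Benjamini-Hochberg). Uchl5, a deubiquitinase of the cap, differed by -0.17 ± 0.10, with overlap. Pomp, the maturation factor of the core, was chosen after its values were seen, as the other gene of the 25 without overlap; these 2 genes are 8% of the list, against 5.98% of all genes. It was at 150.3, 146 and 149 CPM in controls and 166, 153 and 156 CPM in transgenic kidneys, a difference of 0.09 ± 0.08. Nfe2l1, the transcription factor that raises subunit genes when the proteasome is impaired, was likewise chosen afterwards, for its role. It differed by -0.08 ± 0.08, with 166, 152 and 149 CPM in controls and 146, 146 and 151 CPM in transgenic kidneys. Ube3c and Paaf1 were not analysed here.

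Psmc3ip, kept by the rule on letters alone, was at 30.2, 30.8 and 33.3 CPM in controls and 30.2, 34.2 and 30.2 CPM in transgenic kidneys, with overlap.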

How the data were processed

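RNA of 3 control and 3 transgenic kidney samples was sequenced on an Illumina instrument, per the labels' protocols. The authors deposited 1 table of raw columns, which hold estimated counts with fractions, and normalized columns, which hold log2 values. Of its 24 per-sample columns 12 matched these samples, and 12 were not used. Per the file headers, genes needed an NRPKM between 5.0 and 84233.281 in at least 2 of 6 samples. The build was mm10, per the submitters' processing notes; the aligner and the counter were not given in the sources used here.

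Estimated counts were rounded. The 178 rows at 0 in control 3 were left out of the fit, and filterByExpr removed 1 gene, which left 7194. The main test was the edgeR 4.0.16 quasi-likelihood test (R 4.3.3) with TMM scaling and group as the only term, adjusted over all genes by Benjamini-Hochberg at 0.05. Standard errors were taken as log2 fold change over √F. The script was tested on simulated data. Levels per kilobase used principal transcript lengths of GENCODE vM21; positions came from the RefSeq table of GRCm38.p6, the assembly mm10 names, which matched 7344 genes. Totals were 23.5 to 47.6 M estimated counts, medians 1205 to 2362 per gene.

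The proteasome genes and all lists were chosen with earlier results of these data known. Named genes are the catalytic subunits and PA28 genes, the 3 smallest p-values of each group and list, and those said to be chosen after their values were seen. Some genes that this rule takes are not reported here. Alternatives were DESeq2 1.42.0 and its size factors, limma 3.58.1 on the log2 values, no filter, a stricter filter, every row, a replicate block and leaving out each library. No libraries were duplicates: chi-square per degree of freedom was 23.3 or more for all pairs.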

Additional observations from a re-analysis of the deposited data

How the results depend on the processing

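No proteasome gene passed the adjusted test in any setting of edgeR, DESeq2 or limma. Over all genes the number called was 1, 2 with DESeq2, 0 with every row kept, 0 with limma and 0 to 2 with 1 library left out. Genes with an unadjusted p under 0.05 numbered 131, and from 47 (without transgenic 1) to 597 (without control 2) with 1 library left out. With the replicate number as a block 1 gene was called and 176 had an unadjusted p under 0.05. Deviations from group means correlated at -0.0015, -0.03 and 0.33 between same-numbered libraries, and from -0.43 to 0.43 between the others. With so few libraries these values cannot decide whether the numbers pair them. Psmb7 turned sign at values near 0: 0.0017 with DESeq2, 0.0017 with its size factors, 0.0070 with the block and 0.0063 with limma. With 1 library left out, log2 differences ran from -0.084 to 0.11 for Psmb5, -0.010 to 0.10 for Psmb6, -0.11 to 0.085 for Psmb7, -0.067 to 0.10 for Psme1, -0.037 to 0.14 for Psme2, -0.37 to 0.091 for Psma1, -0.33 to 0.036 for Psmd13 and -0.28 to 0.037 for Psmd14. All lower ends came without control 2 and all upper ends without control 3; Psmb7 was also higher without control 1 or transgenic 1, and Psme1 lower without control 1 or transgenic 3. The medians ran from -0.067 to 0.10 for the immunoproteasome and -0.0055 to 0.039 for the other regulators and chaperones. Psmb9 could not be tested under the stricter filter. Differences of the size of a standard error, up to 0.20 on the log2 scale, are not detectable at this number of libraries.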
